A study of Mus musculus with 4 samples.

Results

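Il17-only cells were hepatic T cells with UMIs of *Il17a* or *Il17f*, the genes of the cytokines interleukin 17A and 17F, and none of *Ifng*, and they numbered 138 of 10556 filtered cells in the WT library and 282 of 17462 in the dKO library. They were chosen by the following rule on the raw UMIs (unique molecular identifiers, 1 per captured RNA molecule) of each cell. A member held at least 1 UMI of *Il17a* or *Il17f* and at least 1 of the CD3 genes *Cd3e*, *Cd3d* or *Cd3g*, and no UMI of *Ifng*, *Foxp3*, *Mki67*, *Siglech* or *Lyz2*. The source was CD4 T cells sorted from the livers of male mice kept for 8 weeks on a choline-deficient diet with 60 kcal% fat and 0.1% methionine, a feeding model of steatotic liver disease. WT mice were compared with dKO mice, which carry floxed alleles of *Nr4a1* and *Nr4a2* and a Cre driven by the *Cd4* promoter, so that deletion was aimed at T cells. Each genotype is 1 library made from cells pooled from 2 mice, all on the same diet, and the age of these mice is not given in the sources used here. With 1 library per genotype no difference between genotypes was tested, genotype and library cannot be told apart, and every interval below is a 95% interval of counting error only.

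Th17 cells are CD4 T cells that make IL-17A, IL-17F and IL-22. They are kept in that state by IL-23 and IL-1β through the receptors encoded by *Il23r* and *Il1r1*, and they home through the chemokine receptor CCR6. In the liver, IL-17 acts on hepatocytes, stellate cells and macrophages and has been tied to inflammation and fibrosis, while Th1 cells make IFN-γ under T-bet, the product of *Tbx21*. NR4A proteins are nuclear receptors induced by T cell receptor signals.

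*Il17a* and *Il17f* are protein-coding neighbours on mouse chromosome 1 (GRCm38, the assembly called mm10). *Il17a* lies at chr1:20730905-20734496 on the plus strand and *Il17f* at chr1:20777146-20790617 on the minus strand in GENCODE M21, with 42649 bases between them. The 250 bases before the RefSeq start of each gene are shown because both cytokines define the cells, and capitals mark AGGTCA or its reverse complement TGACCT, the core that many nuclear receptors read.
Il17a, chr1:20730655-20730904, plus strand: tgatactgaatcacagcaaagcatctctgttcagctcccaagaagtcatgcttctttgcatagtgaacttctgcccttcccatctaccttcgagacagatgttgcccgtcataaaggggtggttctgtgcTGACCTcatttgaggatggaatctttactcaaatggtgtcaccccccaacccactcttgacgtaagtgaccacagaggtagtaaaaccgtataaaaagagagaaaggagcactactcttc
Il17f, chr1:20784271-20784520, minus strand: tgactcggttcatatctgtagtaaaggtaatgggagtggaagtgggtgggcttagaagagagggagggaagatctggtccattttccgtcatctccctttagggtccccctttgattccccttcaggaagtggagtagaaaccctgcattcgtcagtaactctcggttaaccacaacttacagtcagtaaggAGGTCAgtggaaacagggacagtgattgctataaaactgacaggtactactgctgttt
Each window held the core 1 time, beginning 120 bases before the *Il17a* start, on the opposite strand to the gene, and 58 bases before the *Il17f* start, on the gene's strand. Over the 32851 promoter windows of this length in the RefSeq table that were searched, which left out 1 chromosome (27025 genes, GRCm38.p6), 14.0% held the core on either strand. Among genes at least 2-fold higher in Il17-only than in Ifng-only cells, 68 were matched by symbol, and 14 of their 93 windows (15.1%) held it, against 8 of 104 windows (7.69%) of the genes that were lower. The longer Nr4a element AAAGGTCA, which contains the core, was in 1.34% of all windows, in 0 of the 93 and in 0 of the 104. The letters are a description of these windows.

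The Il17-only share of filtered cells was 1.31% in WT (exact interval 1.10% to 1.54%) and 1.62% in dKO (1.43% to 1.81%), and these intervals overlapped. The libraries differed more in what else they held. Of the cells in the T cell gate, meaning those with CD3 and without *Foxp3*, *Mki67*, *Siglech* and *Lyz2*, 138 of 6360 (2.17%, 1.83% to 2.56%) were Il17-only in WT and 282 of 7840 (3.60%, 3.20% to 4.03%) in dKO. In the same gate Ifng-only cells, with *Ifng* and no *Il17a* or *Il17f*, were 1389 (21.8%) in WT and 706 (9.01%) in dKO. Cells with both kinds of cytokine were 26 in WT and 6 in dKO. The libraries held 23437516 and 37794986 UMIs in filtered cells, with medians of 1679 and 1685 per cell. The order of the Il17-only shares was the same after each cell was thinned to 1000 UMIs before the rule was applied, with 1.31% of 8627 WT cells (1.08% to 1.57%) and 1.84% of 14391 dKO cells (1.63% to 2.08%), and there the intervals did not overlap. Members had a median of 1618.5 UMIs in WT and 1667 in dKO, with the deepest cell at 8963 and 4976 UMIs, and their summed profiles held 294144 and 540967 UMIs. A gene's level below is its share of that sum in CPM (counts scaled to a sum of 1000000), so that 1 UMI was worth 3.40 CPM in WT members and 1.85 CPM in dKO members.

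The values that the rule used are given as a description. Members had a median of 5 *Il17a* plus *Il17f* UMIs in WT and 6 in dKO, and the highest cells had 69 and 95. In WT, 80 members had *Il17a* alone, 10 had *Il17f* alone and 48 had both, and in dKO these numbers were 121, 24 and 137. The summed *Il17a* level was 3284 CPM in WT and 4923 CPM in dKO, and that of *Il17f* was 728 CPM and 1074 CPM. The 10 cells with the most UMIs carried 31.4% of all *Il17a* and *Il17f* UMIs of WT members and 22.9% of those of dKO members. Just inside the rule lay 32 WT and 57 dKO members with a single *Il17a* or *Il17f* UMI. Just outside it lay 15 WT and 5 dKO cells with *Il17a* or *Il17f* and exactly 1 *Ifng* UMI. Of 263 WT and 497 dKO cells with an *Il17a* or *Il17f* UMI, 250 and 480 also had a CD3 UMI, 231 and 411 of those had no *Siglech* or *Lyz2*, 204 and 342 had no *Foxp3* either, and 164 and 288 no *Mki67*, before *Ifng* was applied.

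Free RNA in droplets can give a cell a UMI of a gene it does not express, so *Il17a* and *Il17f* were counted in cells that should lack them. Of cells with a *Siglech* UMI and no CD3 UMI, which mark plasmacytoid dendritic cells, 3 of 1115 in WT (0.269%, median 1537 UMIs) and 2 of 3070 in dKO (0.0651%, median 2901 UMIs) had an *Il17a* or *Il17f* UMI. In the T cell gate the share with such a UMI was 164 of 6360 in WT (2.58%, median 1631.5 UMIs) and 288 of 7840 in dKO (3.67%, median 1288 UMIs). After thinning to 1000 UMIs it was 0 of 805 WT plasmacytoid-type cells (exact upper limit 0.457%) and 1 of 3048 in dKO, against 2.08% and 3.96% of the T cell gate. Of myeloid cells, with 2 or more *Lyz2* UMIs and no CD3 UMI, 2 of 165 in WT (1.21%, 0.147% to 4.31%, median 1654 UMIs) and 0 of 251 in dKO (exact upper limit 1.46%, median 3418 UMIs) had such a UMI, and the WT interval covers the share of the WT gate. After thinning it was 0 of 131 (exact upper limit 2.78%) and 0 of 235 (1.56%), and in WT that limit too lies above the share of the gate.

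Members with a single UMI were already above cells with none for genes of the programme that the rule did not use. *Il23r* was at 7.08 CPM in WT cells of the gate with neither cytokine, 156 CPM (74.9 to 287) in WT members with 1 *Il17a* or *Il17f* UMI and 252 CPM (159 to 377) in those with 10 or more. In dKO the same values were 6.32, 86.2 (39.4 to 164) and 128 CPM (81.0 to 192). *Il1r1* was at 4.95, 78.1 (25.4 to 182) and 339 CPM (230 to 481) in WT, with the last 2 intervals apart, and in dKO it was at 4.31, 249 (163 to 365) and 194.5 CPM (135.5 to 270.5). *Tmem176b*, an endosomal membrane protein gene, went from 55.1 to 359 and 470 CPM in WT and from 46.6 to 517 and 789 CPM in dKO. *Nkg7*, a cytotoxic granule gene, was at 438, 234 and 54.7 CPM in WT and at 928, 316 and 317 CPM in dKO. The step lay between 0 and 1 UMI for *Il23r* and *Tmem176b* in both libraries, and the intervals of the groups with 1 and with 10 or more UMIs overlapped for *Il23r*, whereas those of *Tmem176b* in WT overlapped and in dKO touched only between 665 and 675 CPM.

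**Figure D1:**
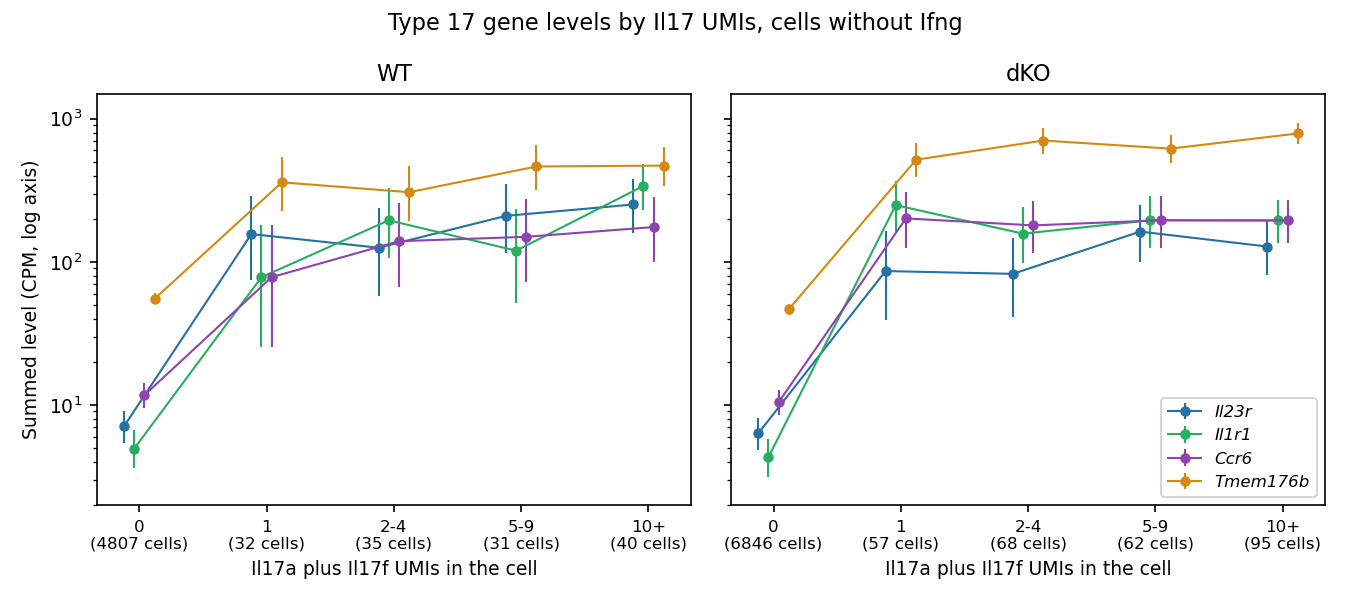
Summed level (CPM, log axis) of 4 type 17 genes in cells of the T cell gate without Ifng, grouped by the Il17a plus Il17f UMIs of the cell, in WT (left) and dKO (right), with exact Poisson 95% intervals and the number of cells under each group. All 4 genes step up between cells with 0 and with 1 UMI, Il23r from 7.08 to 156 CPM in WT and from 6.32 to 86.2 CPM in dKO.

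Compared with Ifng-only cells, the genes furthest higher in Il17-only cells included receptors of the Th17 programme. A gene was compared when its mean over the 4 summed profiles reached 20 CPM, and it was called when the levels differed at least 2-fold in the same direction in both libraries. Of 5985 genes, 88 were higher (1.47% of those compared) and 94 were lower (1.57%). Of the receptor list, 4 of 11 compared genes were higher and 0 lower, and its median log2 ratio was 0.61 in WT and 0.69 in dKO, where all genes had medians of -0.05 and -0.01. The list was chosen with earlier results of these data known, so this is a description.

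*Il1r1*, the receptor for IL-1, was at 197 CPM in WT members (interval 150 to 255) and 196 CPM in dKO members (160 to 237), and at 3.62 and 4.06 CPM in Ifng-only cells. *Il23r* was at 190 CPM in WT members and 116 CPM in dKO members, against 5.13 and 3.25 CPM. *Ccr6* was at 139 and 192 CPM in members, against 6.34 CPM in WT Ifng-only cells and no UMI in dKO Ifng-only cells. *Il17re*, a subunit of the receptor for IL-17C, was at 71.4 and 72.1 CPM, against 1.51 CPM and no UMI. In neither library did the interval of members overlap that of Ifng-only cells for these 4 genes, and the log2 ratios lay between 4.46 and 5.77 in WT, were 5.16 for *Il23r* and 5.59 for *Il1r1* in dKO, and were at least 6.30 for *Ccr6* and 4.89 for *Il17re* in dKO, taking 3 UMIs for none.

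The other listed receptors were nearer between the groups. *Il18r1*, for IL-18, was at 374 and 364 CPM in members and at 244 and 225 CPM in Ifng-only cells, with log2 ratios of 0.61 and 0.69. *Il7r*, which carries survival signals, was at 806 and 643 CPM against 472 and 493 CPM. *Il21r* was at 126 and 181 CPM in members and at 257 and 290 CPM in Ifng-only cells, and so lower in members in both libraries, though not 2-fold in dKO.

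Of the regulators, the nuclear receptor gene *Rora* was at 945 and 786 CPM against 613 and 350 CPM. *Maf* was at 330 and 375 CPM against 209 and 341 CPM, and *Stat3*, which relays IL-6 and IL-23 signals, was at 231 and 226 CPM against 249 and 360 CPM. None of these 3 was 2-fold apart in both libraries, although *Rora* was in dKO.

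Of the cytokines beside the 2 in the rule, *Il22* alone of 6 compared genes was called. *Il22*, which acts on epithelial cells and hepatocytes, was at 34.0 CPM in WT members and 122 CPM in dKO members, and at 0.302 CPM and no UMI in Ifng-only cells. Its UMIs lay in 5 of 138 WT and 26 of 282 dKO members, and 15 of its 66 UMIs in dKO came from 1 cell. *Csf2* (GM-CSF) was at 78.2 and 14.8 CPM in members, against 29.0 and 31.7 CPM, with UMIs in 4 members of each library, and *Ccl20*, the ligand of CCR6, was at 10.2 and 1.85 CPM, from 3 members and 1 member.

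Among the listed type 17 genes of the cell surface and metabolism, 9 of 12 were higher and 0 lower, with a median log2 ratio of 1.91 in WT and 2.53 in dKO. Over all genes compared, 1.47% were higher and 1.57% lower. The list was chosen with earlier results of these data known, so its count is a description. *Tmem176a* and *Tmem176b*, head to head on chromosome 6 and overlapping by 578 bases on opposite strands, were at 394 and 616 CPM and at 405 and 677 CPM in members, against 35.6 and 36.6 CPM and 48.6 and 66.6 CPM in Ifng-only cells. *Tmem176b* was proposed as a marker of these cells together with the cytokines, and it had UMIs in 74 of 138 WT and 179 of 282 dKO members. *Aqp3*, a water and glycerol channel, was at 126 and 177 CPM against 7.84 and 5.68 CPM. *Ramp1*, a subunit of the receptor for the neuropeptide CGRP, was at 292 and 499 CPM against 30.5 and 83.7 CPM. *Ltb4r1*, the leukotriene B4 receptor, was at 105 and 202 CPM against 15.1 and 9.75 CPM. *Smox*, spermine oxidase, was at 150 and 222 CPM against 37.1 and 27.6 CPM. *Podnl1*, *Lgals3* and *Ckb* of this list were not called.

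The genes at the upper end by the smaller of the 2 log2 ratios included *5830411N06Rik*, *Ppp1r14c*, *Il22*, *Il1r1*, *Il23r*, *Il17re*, *Cpe*, *Stmn2* and *Ccr6*. *Ppp1r14c*, an inhibitor of protein phosphatase 1, was at 64.6 and 51.8 CPM in members and had no UMI in WT Ifng-only cells and 0.812 CPM in dKO. *Cpe*, carboxypeptidase E, was at 37.4 and 70.2 CPM against 0.302 CPM and no UMI. *Stmn2*, a tubulin-binding protein best known from neurons, was at 68.0 and 59.2 CPM against 3.02 CPM and no UMI, from 10 WT and 15 dKO members.

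**Figure D2:**
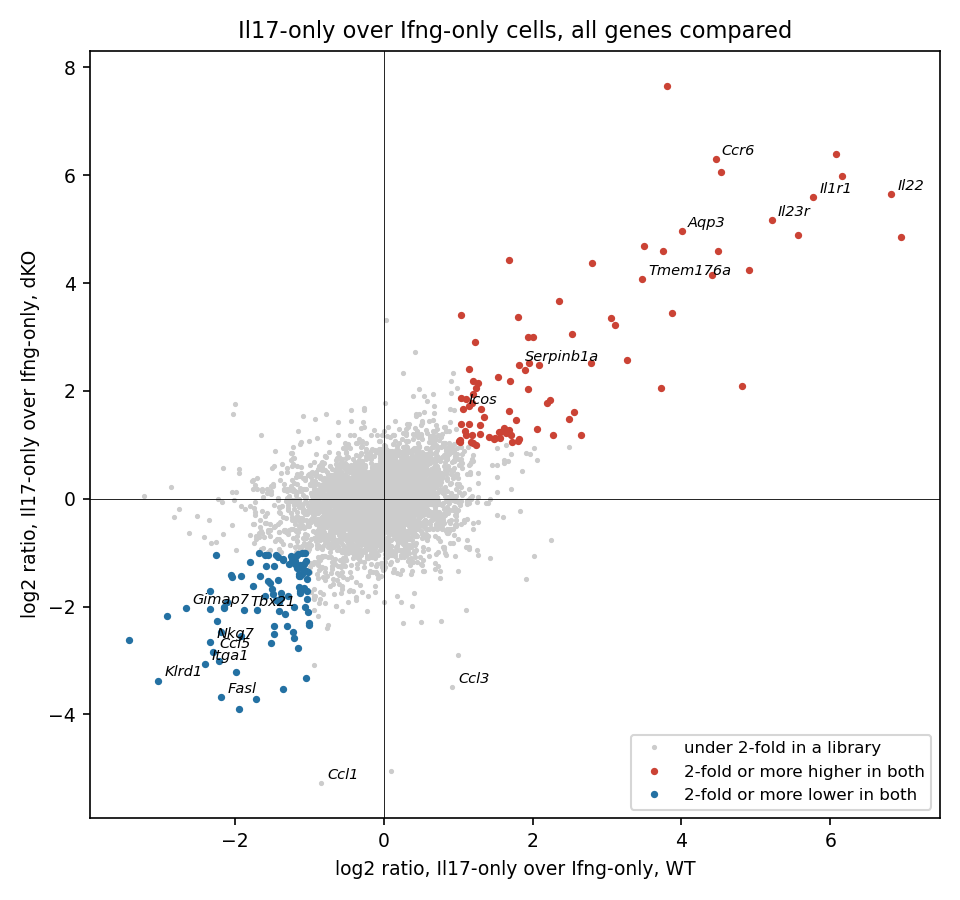
Log2 ratio of Il17-only over Ifng-only cells for each gene compared, WT on the x axis and dKO on the y axis, with genes at least 2-fold apart in the same direction in both libraries coloured. Il1r1 lies at 5.77 and 5.59, Klrd1 at -3.03 and -3.37, and Ccl3 falls on opposite sides of 0 at 0.92 and -3.49.

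Genes of the Th1 and cytotoxic programme were lower. Of the 15 compared genes of the type 1 list, 9 were lower and 0 higher, and the median log2 ratio was -1.22 in WT and -2.31 in dKO. Over all genes compared, 1.57% were lower and 1.47% higher. This list too was chosen with earlier results of these data known, and its count is a description. *Tbx21* was at 54.4 CPM in WT members and 31.4 CPM in dKO members, against 200 and 132 CPM in Ifng-only cells. *Il12rb2*, which carries IL-12 signals, was at 44.2 and 11.1 CPM against 175 and 103 CPM. *Fasl*, the ligand of the death receptor Fas, was at 37.4 and 9.24 CPM against 170 and 119 CPM. *Ccl5* was at 595 and 1976 CPM against 2913 and 14160 CPM, and *Nkg7* at 146 and 255 CPM against 736 and 1615 CPM. For these 5 genes the interval of members lay below that of Ifng-only cells in both libraries. *Stat4*, *Cxcr3*, *Gzmb*, *Ccl3*, *Ccl4* and *Hopx* of the list were not called.

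The lower end held *Klrd1*, *Itga1*, *Nkg7*, *Ccl5*, *Stk32c*, *Ifitm10*, *Fasl*, *Slamf7*, *Atp8a2* and *Entpd1*. The call of *Stk32c* was lost after thinning and with CPM averaged over cells, and that of *Ifitm10* after thinning. *Klrd1*, the CD94 chain of NK cell receptors, was at 13.6 and 9.24 CPM in members against 111 and 95.8 CPM. *Itga1*, the collagen-binding integrin CD49a, was at 20.4 and 5.55 CPM against 108 and 46.3 CPM. *Itgae*, the CD103 integrin of tissue T cells, went the other way at 30.6 and 70.2 CPM against 8.75 and 33.3 CPM, and lost its call after thinning. *Slamf7* was at 17 and 11.1 CPM against 77.2 and 61.7 CPM.

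**Figure D3:**
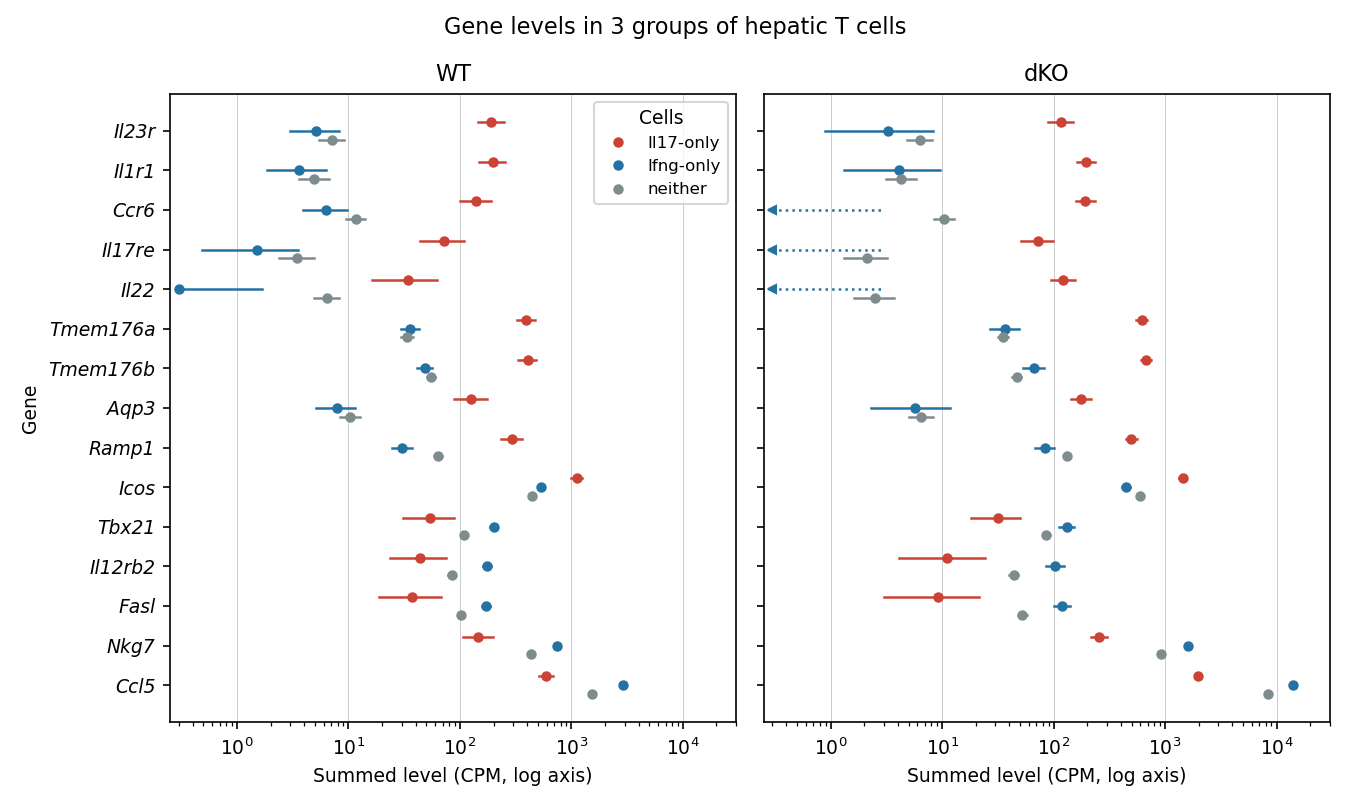
Summed level (CPM, log axis) of 15 genes in Il17-only, Ifng-only and cytokine-negative (neither) cells of the T cell gate, WT left and dKO right, with exact Poisson 95% intervals. Arrows at the left edge mark genes with no UMI, with the dotted line up to the upper limit. Il1r1 sits at 197 and 196 CPM in Il17-only cells and Ccl5 at 595 and 1976 CPM, below its 2913 and 14160 CPM in Ifng-only cells.

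The same cells were set against T cells of the gate with neither cytokine, 4807 in WT and 6846 in dKO. The dKO cells of this kind had regulatory T cell transcripts despite lacking a *Foxp3* UMI: *Ctla4* was at 292 CPM in WT and 1444 CPM in dKO, and *Ikzf2*, the Helios gene, at 146 and 743 CPM. Of 6002 genes compared, 73 were higher in members (1.22%) and 53 were lower (0.883%). The upper end included *Il1r1*, *Cpe*, *Ppp1r14c*, *5830411N06Rik*, *Il17re*, *Stmn2*, *Il23r*, *Mmp25* and *Aqp3*. *Il1r1* had log2 ratios of 5.32 and 5.50 and *Il23r* of 4.75 and 4.20. *Mmp25*, a membrane-bound metalloprotease, was at 57.8 and 86.9 CPM in members against 3.82 and 5.42 CPM. *Icos*, a costimulatory receptor, was at 1118 and 1433 CPM in members, against 444 and 598 CPM in these cells and 537 and 450 CPM in Ifng-only cells. *Cxcr6*, a chemokine receptor of liver-resident lymphocytes, was at 693 and 793 CPM against 313 and 336 CPM, and its call was lost with TMM scaling. The lower end began with *Gimap7*, *Klrd1*, *Actn1*, *Sh3rf1* and *Nkg7*, and *Gimap7*, a GTPase gene of resting lymphocytes, was at 37.4 and 72.1 CPM against 161 and 296 CPM. *Il6st*, the gp130 chain of the IL-6 receptor, was at 17 and 14.8 CPM against 42.3 and 44.7 CPM. The calls of *Gimap7* and *Il6st* were lost after thinning.

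Of 11 glycolysis genes compared, 0 were called against either group, and of 7 and 6 sterol genes 0 were called. With 1.47% and 1.57% of all genes called against Ifng-only cells and 1.22% and 0.883% against cells with neither cytokine, lists this short would be near 0 at the background, and nothing is read from these counts. Of 15 genes of the T cell receptor response, 0 were higher and *Nr4a2* and *Myc* were lower than in Ifng-only cells, and *Myc* alone was lower than in cells with neither cytokine. *Myc* had UMIs in 4 WT and 6 dKO members, and both of its calls were lost after thinning.

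A single cell often shows none of its low-abundance transcripts. After thinning to 1000 UMIs, which left out 23 WT and 22 dKO members, 19 of 115 WT members (16.5%, 10.2% to 24.6%) and 43 of 260 dKO members (16.5%, 12.2% to 21.6%) had a *Ccr6* UMI. The share was 6 of 1262 (0.475%) and 0 of 597 (exact upper limit 0.616%) in Ifng-only cells and 8 of 805 (0.994%) and 14 of 3048 (0.459%) in plasmacytoid-type cells, whose median depths before thinning were 2295 and 2907 UMIs, against 1781 and 1706 UMIs of members. *Il1r1* had a UMI in 18 of 115 WT members (15.7%) and 47 of 260 dKO members (18.1%), against 2 of 805 (0.248%) and 7 of 3048 (0.230%) plasmacytoid-type cells. Members thus lay above the plasmacytoid-type cells for both genes in both libraries. Without thinning, *Ccr6* had a UMI in 24.6% of 138 WT and 29.1% of 282 dKO members, and *Il1r1* in 22.5% and 28.4%. In cells with neither cytokine the thinned *Ccr6* share was 1.32% and 0.857%, with intervals that overlapped those of the plasmacytoid-type cells in both libraries.

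Markers of other cells were checked in the summed members. *Cd8a*, *Itgam*, *Alb*, *Ttr*, *Retnlg* and *Camp* had no UMI in either library. Other genes of their lists did, and 2 of 6 hepatocyte genes had a UMI in dKO members, with a sum of 3.70 CPM. The summed list of 6 myeloid genes was at 112 and 66.6 CPM in WT and dKO members, against 57.0 and 72.3 CPM in Ifng-only cells. The summed B cell list was at 136 and 27.7 CPM against 112 and 49.5 CPM. The summed list of 4 neutrophil genes was at 6.80 and 68.4 CPM in members, against 1.51 and 9.75 CPM in Ifng-only cells. In cells with neither cytokine this list was at 8.77 and 16.55 CPM. *S100a8*, a neutrophil gene, was at 6.80 and 49.9 CPM in members, all from 1 cell in each library. The 5 plasmacytoid genes summed to 224 and 181 CPM in members, against 185 and 266 CPM in Ifng-only cells. Of 6 NK and CD8 genes, 4 had a UMI in WT members and 1 in dKO members, and the list summed to 30.6 and 9.24 CPM against 104 and 76.3 CPM in Ifng-only cells. The part of these RNAs in the results was not tested.

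γδ T cells also make IL-17 in the mouse, so genes of that lineage were followed. *Trdv4*, a δ chain variable gene, was at 40.8 CPM in WT members and 59.2 CPM in dKO members, and *Tcrg-C1* at 68.0 and 20.3 CPM, all at least 2-fold above both other groups in both libraries. They rested on few cells: *Trdv4* had UMIs in 1 WT and 6 dKO members. A UMI of *Trdc* or *Trdv4* was found in 2 of 138 WT members (1.45%, 0.176% to 5.14%) and 9 of 282 dKO members (3.19%, 1.47% to 5.97%). A cell can lack a UMI of a gene it expresses, so these are not the shares of γδ T cells. *Cd163l1*, the scavenger receptor of IL-17-making γδ T cells, was at 651 CPM in those 2 WT cells and 556 CPM in those 9 dKO cells, and at 27.2 and 29.6 CPM over all members. *Il1r1* without members holding a *Trdc* UMI stayed called against both other groups. That setting kept 136 of 138 WT and 275 of 282 dKO members, so the call could hardly change. It cannot show which lineage the *Il1r1* UMIs came from.

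Receptor contigs were found in 60 of 138 WT members (43.5%) and 133 of 282 dKO members (47.2%), against 48.7% and 33.9% of Ifng-only cells. Members with and without a contig had overlapping levels of *Il1r1*, at 150 CPM (96.0 to 223) and 254 CPM (176 to 355) in WT and at 209 CPM (158 to 270) and 183 CPM (135 to 242) in dKO. Other genes differed between these subsets: in WT *Trac*, the α chain constant gene, was at 456 CPM (357 to 573) with a contig and 194 CPM (127 to 284) without, and *Blk*, a kinase gene of IL-17-making γδ T cells, at 6.24 CPM (0.158 to 34.8) and 82.1 CPM (41 to 147). In dKO *Ccl5* was at 1492 CPM (1352 to 1643) with a contig and 2488 CPM (2301 to 2686) without. Members with a contig were deeper, with medians of 2391 against 1367.5 UMIs in WT and 1855 against 1590 in dKO. The semi-invariant α chains of iNKT and MAIT cells were found in 0 of 40 WT and 0 of 92 dKO members with an α chain, with exact upper limits of 8.81% and 3.93%. Among Ifng-only cells the iNKT chain was in 17 of 458 (3.71%) and 14 of 143 (9.79%).

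Both an α and a β chain were read in 36 WT and 71 dKO members, and cells with identical CDR3 nucleotide sequences of both chains formed a clonotype. In WT, 9 of 36 members (25%, 12.1% to 42.2%) shared a clonotype with another cell of the library, against 209 of 392 Ifng-only cells (53.3%, 48.2% to 58.3%). In dKO it was 32 of 71 members (45.1%, 33.2% to 57.3%), against 60 of 116 (51.7%, 42.3% to 61.1%). The intervals of Il17-only and Ifng-only cells were apart in WT and overlapped in dKO. Of cells with neither cytokine it was 409 of 1099 in WT (37.2%, 34.35% to 40.15%) and 537 of 1031 in dKO (52.1%, 48.99% to 55.17%). Those intervals overlapped the member intervals in both libraries. Over the alternatives the WT member share lay between 22.2% (10.1% to 39.1%, clonotypes from 3 cells) and 35.5% (19.2% to 54.6%, after thinning), and it was 48.2% (34.7% to 62.0%) by the β chain alone. The Ifng-only share was not recomputed under them, so the gap is given for the main setting only. Clonotypes of 10 or more cells held 4 of 36 WT and 4 of 71 dKO members, against 115 of 392 and 30 of 116 Ifng-only cells. A clonotype's size grows with the number of cells read, and 2175 WT and 2420 dKO cells had both chains.

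The CDR3 sequences below are those of the clonotypes with 3 or more members, of the largest clonotype with a member in each library, and of the WT clonotype with 2 members. Capitals mark the bases between the longest match to the V and to the J segment in GENCODE M21.
dKO, 5 cells, 4 of them Il17-only, TRBV3 and TRBJ2-7: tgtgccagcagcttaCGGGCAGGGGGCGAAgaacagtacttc
the α chain of that clonotype, TRAV7-5 and TRAJ11: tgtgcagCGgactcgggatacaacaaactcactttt
dKO, 7 cells, 3 of them Il17-only, TRBV5 and TRBJ1-3: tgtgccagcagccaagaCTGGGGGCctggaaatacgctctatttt
the α chain of that clonotype, TRAV6-5 and TRAJ44: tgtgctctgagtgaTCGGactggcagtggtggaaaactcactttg
dKO, 3 cells, all Il17-only, TRBV15 and TRBJ1-1: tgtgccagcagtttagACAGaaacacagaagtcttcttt
the α chain of that clonotype, TRAV14-2 and TRAJ49: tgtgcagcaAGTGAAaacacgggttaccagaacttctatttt
dKO, 281 cells, 2 of them Il17-only, TRBV13-1 and TRBJ2-4: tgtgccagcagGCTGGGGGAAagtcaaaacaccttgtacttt
WT, 18 cells, 2 of them Il17-only, TRBV15 and TRBJ1-1: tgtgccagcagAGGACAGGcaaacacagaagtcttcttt
WT, 70 cells, 1 of them Il17-only, TRBV13-1 and TRBJ2-2: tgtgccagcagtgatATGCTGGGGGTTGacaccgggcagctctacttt
The clonotypes with 3 or more members had 3 to 7 cells, whereas the large ones in both libraries held 1 or 2 members. No paired clonotype, which is defined by nucleotide sequence, was found in both libraries. The nearest case was a WT member whose β CDR3 was identical, base for base, to that of the dKO clonotype of 3 cells. Its α chain used the same segments and length and differed in 1 base, with the codon gag in WT and gaa in dKO. Both codons stand for glutamate, so the CDR3 amino acids of both chains were the same in the 2 libraries.

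The other cells of these clonotypes show in which state sister cells of a member were found. In WT, 8 clonotypes of 2 or more cells held 9 members and 116 other cells, of which 21 were Ifng-only, 1 had both cytokines, 50 had neither and 44 lay outside the gate. The 21 Ifng-only sisters came from 3 clonotypes, 14 of them from the clonotype of 70 cells. Without it 7 of 47 other cells were Ifng-only. In dKO, 21 clonotypes held 32 members and 343 other cells, of which 12 were Ifng-only, 0 had both, 153 had neither and 178 lay outside the gate. In the clonotype of 281 cells, 112 cells had a *Foxp3* UMI. Without it 11 of 64 other cells were Ifng-only, 9 of them from 1 clonotype of 26 cells. In dKO, 7 clonotypes held 2 or more members, with 18 members in all, and in WT 1 did, with 2. A small clonotype that holds a member has a high share of members by that choice.

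**Figure D4:**
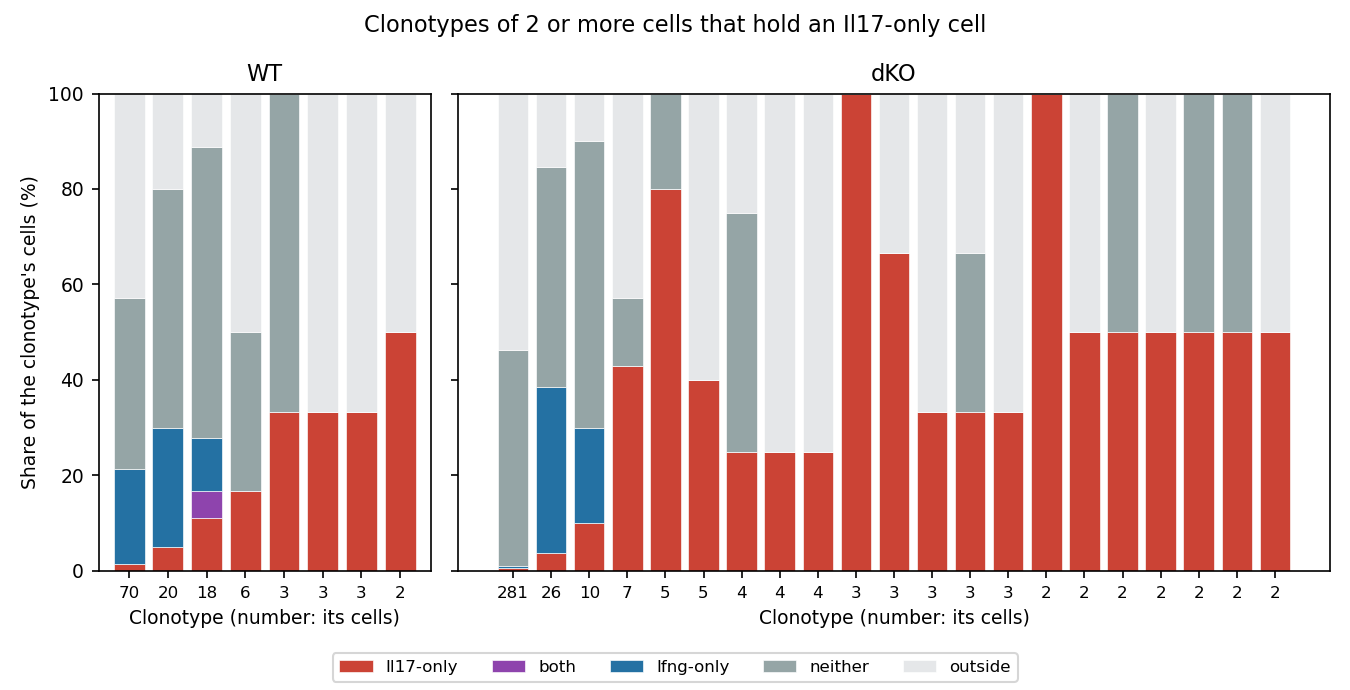
Makeup of each clonotype of 2 or more cells with at least 1 Il17-only member, as a share of its cells (%), with the number of its cells under each bar, WT left and dKO right. Ifng-only cells appear in 3 clonotypes of each library, and a small clonotype has a high Il17-only share by having been chosen for its member.

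Within Il17-only cells, 240 of 5856 genes with a mean of 20 CPM were at least 2-fold higher in dKO than in WT (4.10%) and 364 were lower (6.22%). With TMM scaling the split was 319 higher and 257 lower, so the balance of directions was not stable. Near 20 CPM a level rests on a few UMIs. The leading Th17 genes were not among the calls: *Il23r*, *Il1r1*, *Ccr6*, *Il17re* and *Rora* had log2 ratios of dKO over WT of -0.71, -0.01, 0.46, 0.01 and -0.27. Of these 5 the intervals of *Il23r* (-1.25 to -0.16) and *Rora* (-0.49 to -0.04) left out 0. Of the 11 receptor genes compared, 0 were called, and of the 12 surface and metabolic genes *Podnl1* alone was, a call lost after thinning. *Il22* was higher in dKO members, at 122 against 34.0 CPM (log2 ratio 1.84, 0.88 to 2.97), while in cells with neither cytokine it was at 2.51 against 6.41 CPM (-1.35). *Tmem176b* was at 677 against 405 CPM (0.74, 0.44 to 1.05).

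*Nr4a1* and *Nr4a2* went against the label of the library, and both did so in its Ifng-only cells too. *Nr4a1* was at 1030 CPM in WT members (917 to 1153) and at 2488 CPM (2357 to 2625) in members of the library labelled dKO, and *Nr4a2* at 109 and 165 CPM. *Nr4a1* was also higher in Ifng-only cells, from 917 to 1801 CPM, and in cells with neither cytokine, from 640 to 1772 CPM. *Nr4a2* went from 266 to 575 CPM in Ifng-only cells. *Nr4a3*, which was not targeted, was at 442 and 336 CPM in members. Gene counts do not show which exons the molecules came from, so they do not check the deletion, and every direction given here for dKO is that of the library labelled so. By flow cytometry the paper reports fewer IFN-γ+, more Foxp3+ and fewer IL-17A+ CD4 cells in dKO livers. Here Ifng-only cells were 21.8% of the gate in WT and 9.01% in dKO. *Ctla4* in cells with neither cytokine was at 292 and 1444 CPM. The Il17-only share ran the other way from the paper's IL-17A+ cells, but its intervals over filtered cells overlapped (1.10% to 1.54% and 1.43% to 1.81%). These are unlike measures. The paper's shares are of protein among all liver CD4 cells, stimulated before cytokines were stained. The shares here are of RNA, without cells holding *Foxp3* or *Mki67*. *Cd4*, like *Nr4a1*, was higher in all 3 groups of the library labelled dKO, at 190 and 726 CPM in members.

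Of the 14 genes of the T cell receptor response compared between dKO and WT members, *Nr4a1* was called higher and *Cd40lg* lower. Over all genes compared 4.10% were called higher and 6.22% lower, and nothing is read from this count. *Dusp1*, *Junb*, *Jun* and *Fos* of that list had intervals below 0 without reaching 2-fold. *Dusp1*, a phosphatase that turns off MAP kinases, was at 925 CPM in WT and 468 CPM in dKO (log2 ratio -0.98, -1.24 to -0.73), with UMIs in 84 of 138 and 130 of 282 members. *Junb* was at 5443 and 3431 CPM (-0.67, -0.76 to -0.57), *Jun* at 619 and 407 CPM, and *Fos* at 469 and 275 CPM. *Cd40lg*, the helper signal to B cells and myeloid cells, was at 493 and 239 CPM and was 2-fold lower in the other 2 groups as well, and its call in members was lost with TMM scaling and with CPM averaged over cells. Of the 15 compared genes of the type 1 list, 3 were higher in dKO members (*Ccl5*, *Gzmb* and *Gzmk*) and 4 lower (*Il12rb2*, *Ccl3*, *Xcl1* and *Fasl*). *Ccl5* was at 595 and 1976 CPM, *Xcl1* at 150 and 24.03 CPM from 8 and 2 members, and *Fasl* at 37.4 and 9.24 CPM. *Ccl1*, which is not in that list, was at 57.8 and 1.85 CPM from 2 members and 1 member. Of the 7 calls, that of *Ccl5* alone was kept under every alternative run on named genes. It was not particular to members: *Ccl5* went from 2913 to 14160 CPM in Ifng-only cells and from 1532 to 8294 CPM in cells with neither cytokine. *Gzmk* was likewise higher in dKO in those groups (38.6 to 249 and 27.1 to 133.5 CPM) and *Fasl* lower (170 to 119 and 102 to 52.5 CPM). *Ccl3* went the other way in both. *Gzmb* and *Ccl3* changed direction after thinning, to log2 ratios of -1.01 and 1.23, and the call of *Gzmb* was kept only with TMM scaling among those alternatives. The call of *Gzmk* was lost after thinning and with at least 2 *Il17a* plus *Il17f* UMIs, and that of *Il12rb2* with CPM averaged over cells. The call of *Xcl1* was lost after thinning, that of *Ccl1* with CPM averaged over cells and without cells of 2 or more β chains and the top 5% by UMIs, and that of *Fasl* with at least 2 *Il17a* plus *Il17f* UMIs and with CPM averaged over cells.

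Of 6 compared regulatory and 6 compared checkpoint genes, *Tigit*, which is in both lists, was called higher in dKO members and 0 were called lower, and the call was lost after thinning. With 4.10% of all genes called higher and 6.22% lower, lists this short would be near 0, and nothing is read from these counts. *Tigit* was at 112 and 277 CPM in members (log2 ratio 1.31, 0.75 to 1.90), against 93.8 and 705 CPM in cells with neither cytokine (2.91). *Ctla4* was at 894 and 1255 CPM (0.49, 0.28 to 0.70), against 2.31 in those cells, and *Ikzf2* at 119 and 181 CPM (0.61, 0.04 to 1.21), against 2.34. *Lag3* had no UMI in WT members and was at 29.6 CPM in dKO members. The intervals of *Tigit*, *Ctla4* and *Ikzf2* in members lay below those in cells with neither cytokine, which is a comparison of counting errors within 1 pair of libraries. The upper end of the dKO over WT comparison began with 2 genes at or near 0 in all 3 WT groups, *BC018473* (no UMI in WT members, 300 CPM in dKO) and *Gdpd3* (no UMI, 248 CPM).

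**Figure D5:**
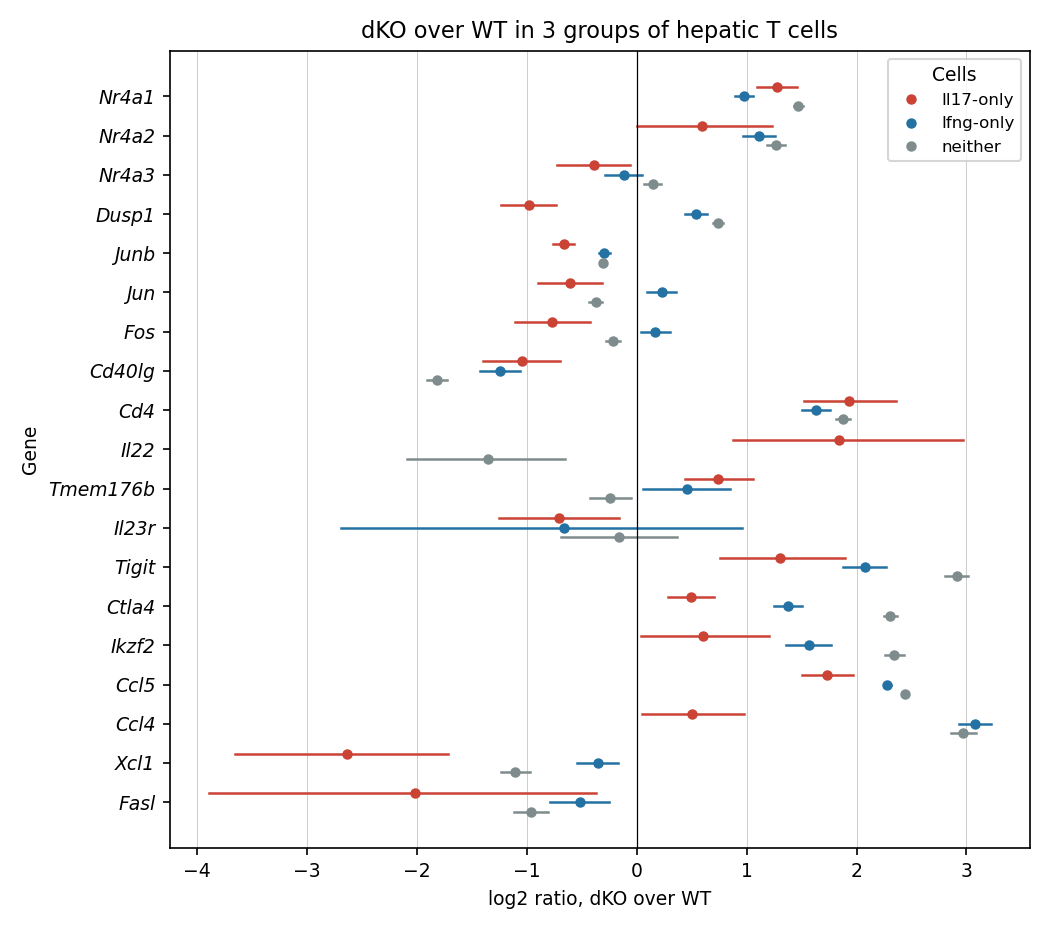
Log2 ratio of dKO over WT for 19 genes within Il17-only, Ifng-only and cytokine-negative (neither) cells, with exact conditional 95% intervals of counting error. Dusp1 lies at -0.98 in Il17-only cells and at 0.54 and 0.74 in the other groups, whereas Nr4a1 lies above 0 in all 3. A group with too few UMIs for a ratio has no point.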

How the data were processed

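Single-cell 5′ gene expression libraries and their matched T cell receptor libraries, 1 of each per genotype, were used. The deposited values are raw counts of UMIs per gene and cell, which the authors made with Cell Ranger 7.0.1 against mm10, and the receptor tables hold the authors' counts of reads and UMIs per contig. Cells with over 200 genes and under 5% mitochondrial UMIs were kept. UMIs were summed per library and cell group and expressed as CPM, and ratios carry exact conditional binomial intervals, levels exact Poisson and shares Clopper-Pearson intervals (95%, SciPy 1.17.1). The calculation of ratios was tested on simulated data. Genes of the cell rule were left out of gene comparisons, and a group with no UMI was set to 3 UMIs in a ratio, or given no ratio where that exceeded the other group. The genes named were those of the gene lists and the 10 at each end of each comparison, without receptor, immunoglobulin, mitochondrial and ribosomal protein genes. A clonotype used, per chain, the contig with the most UMIs. Members, rule and lists were chosen with earlier results of these data known. No doublet caller was run, and cells with 2 or more β chains and the top 5% by UMIs were left out as an alternative instead. Members with 2 or more β chains were 7 of 138 in WT (5.07%) and 2 of 282 in dKO (0.709%). In cells with neither cytokine the shares were 1.10% and 0.351%. TMM factors came from edgeR 4.0.16. The libraries shared 245 barcodes, of which 3 WT and 4 dKO members carried a barcode also used in the other library. Some genes are not reported here.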

Additional observations from a re-analysis of the deposited data

Results flagged for a closer look

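The following genes moved one way between dKO and WT in Il17-only cells and the other way in both Ifng-only cells and cells with neither cytokine, with every interval clear of 0. The difference between cell groups was not tested, since each genotype is 1 library. *Dusp1* had a log2 ratio of -0.98 in Il17-only cells, 0.54 in Ifng-only cells and 0.74 in cells with neither cytokine. *Ccl3* was at -1.24 in Il17-only cells, with UMIs in 4 WT and 5 dKO members, and at 3.17 and 2.55 in the other groups, and its direction in Il17-only cells changed after thinning. Its call was also lost with at least 2 *Il17a* plus *Il17f* UMIs, with CPM averaged over cells and without cells with a *Trdc* UMI. *Epas1*, the HIF-2α gene, was at -3.05 in Il17-only cells, with UMIs in 11 WT and 3 dKO members, and at 0.84 and 0.28 in the other groups, and lost its call without cells of 2 or more β chains and the top 5% by UMIs. In all, 16 of 5856 genes showed such a reversal, 9 lower and 7 higher in dKO members. The 7 higher were *Dgkd*, *Arhgdib*, *Ankrd11*, *Clint1*, *Ripor2*, *Emb* and *Rgcc*. Among the 9, lower in dKO members and higher in both other groups, were the antigen presentation genes *Cd74* (860 and 342 CPM in WT and dKO members, with UMIs in 23 of 138 and 57 of 282) and *H2-Eb1* (197 and 90.6 CPM, in 11 and 18 members) and the myeloid and NK cell gene *Tyrobp* (71.4 and 29.6 CPM, in 6 and 8 members). These 3 and the 7 were named after their values were seen, and the part of RNA from other cells in the reversals was not tested.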

How the results depend on the processing

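No paired analysis was possible because each genotype has 1 library. The comparison with cells holding both cytokines was not run, since a single UMI in its 6 dKO cells is worth 74.2 CPM. With at least 2 *Il17a* plus *Il17f* UMIs the share was 1.004% in WT and 1.29% in dKO. It was 2.17% and 3.60% of the cells in the gate, 1.66% and 2.93% of cells with both receptor chains, and 1.84% in dKO after thinning to 1000 UMIs before the rule. dKO stood above WT in each of these. The paper reports the other direction, fewer IL-17A+ cells among stimulated liver CD4 cells of dKO mice by flow cytometry, which is a different measure. By the TRB sequence alone, 48.2% of WT and 61.6% of dKO members were in a clonotype of 2 or more cells.

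The counts of genes changed with the minimum level, and the cause was not tested. At a mean of 50 CPM there were 44 higher and 51 lower against Ifng-only cells, 39 and 20 against cells with neither cytokine, and 55 and 85 for dKO over WT. At 10 CPM these were 134 and 158, 121 and 96, and 521 and 672. Thinning before the rule gave 144 lower against Ifng-only, 100 lower against neither, and 501 higher and 650 lower for dKO over WT. With CPM taken cell by cell and then averaged, 145 and 85 genes were lower against Ifng-only and neither. With both receptor chains required, 113 were higher against neither, and 659 higher and 835 lower for dKO over WT. The cause of the changes with thinning and with per-cell means was not tested.

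Among the called named genes, 41 of 41 kept their call against Ifng-only cells with 1 cell per clonotype and with TMM factors, and 33 of 39 did after thinning. For dKO over WT 23 of 39 kept it after thinning. There *Bcl6* (1.36), *Ccl3* (1.23), *Fdps* (-0.007), *Gzmb* (-1.01), *Il2* (1.77) and *Itgae* (-0.13) changed direction, as did *Gzmb* (-0.15) with at least 2 UMIs. Leaving out the largest clonotype of each library, an alternative chosen after seeing the data, changed no count by over 1.5 times.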
